A study of Homo sapiens with 9 samples.

Results

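The 6 microRNA hairpins described here lie inside the human HOX gene clusters and were taken by name from the deposited count table: hsa-mir-10a, hsa-mir-10b, hsa-mir-196a-1, hsa-mir-196a-2, hsa-mir-196b and hsa-mir-615. They are 6 of the 1485 hairpins in that table. The study sequenced small RNAs after siRNA knockdown of ERH, a small conserved protein that binds DGCR8, in 2 human cell lines. HEK293E is a human embryonic kidney line that carries the Epstein-Barr virus EBNA1 protein, and K562 is a chronic myeloid leukemia line. HEK293E cells received siRNA by lipofection on days 0 and 3 and were harvested on day 5, and K562 cells were electroporated and harvested 4 days later. In HEK293E, replicates 1 and 2 each have a library with siGFP, siControl and siERH-3, and replicate 2 also has one with siERH-5. In K562, siGFP and siERH-5 gave 1 library each. The 4 HEK293E libraries with siGFP or siControl are called controls, and the 3 with siERH-3 or siERH-5, which are 2 different siRNAs against ERH, are called siERH.

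HOX genes encode the transcription factors that set position along the body axis, and they stand in 4 clusters in the order in which they act. The miR-10 and miR-196 families are placed between HOX genes at matching points of different clusters, and miR-196 is known for repressing HOX mRNAs, with HOXB8 the classic target. Such hairpins are cut out of a long primary transcript by Drosha and its partner DGCR8, which together form the Microprocessor, and then by Dicer.

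In the GENCODE 29 annotation of GRCh38, hsa-mir-10a lies in the HOXB cluster at chr17:48579838-48579947 on the minus strand, inside an exon of a HOXB4 transcript that is annotated as UTR and inside HOXB3. hsa-mir-196a-1 lies in the same cluster at chr17:48632490-48632559 on the minus strand, in an intron of HOXB7 and opposite the antisense gene HOXB-AS4. The HOXC cluster holds hsa-mir-196a-2 at chr12:53991738-53991847 on the plus strand, in an intron of HOXC6, and hsa-mir-615 at chr12:54033950-54034045 on the plus strand, in introns of HOXC5 and HOXC4. hsa-mir-196b lies in the HOXA cluster at chr7:27169480-27169563 on the minus strand, in an exon of a HOXA9 transcript and opposite an exon of HOXA10-AS. hsa-mir-10b lies in the HOXD cluster at chr2:176150303-176150412 on the plus strand, in an intron of HOXD3. The clusters hold 2 further hairpins of the table, hsa-mir-3185 and hsa-mir-7704. hsa-mir-3185 had 0 to 2 counts a library and was not tested, and hsa-mir-7704 had 8 to 15 counts in HEK293E.

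**Figure D1:**
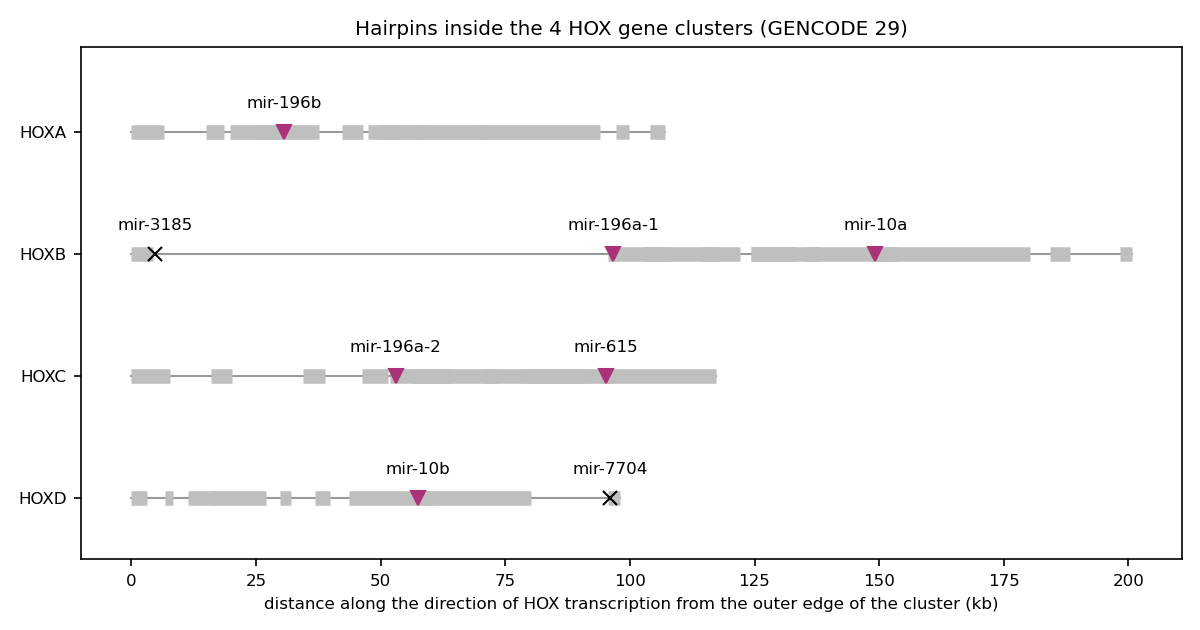
Position of the hairpins (triangles, the 6 described; crosses, hsa-mir-3185 and hsa-mir-7704) within the 4 HOX clusters; the horizontal axis is the distance in kb along the direction of HOX transcription and grey bars are HOX genes. HOXB and HOXC each hold 2 of the 6 hairpins, and HOXA and HOXD hold 1 each.

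The mature sequences are shown because the seed, bases 2 to 8 and here in capitals, sets which mRNAs a microRNA pairs with, and because near-identical sequences share reads. They are the arms known as the main products, from RefSeq (GRCh38.p14), 5′ to 3′. The table counts whole hairpins, so the arm behind a count was not measured. hsa-miR-10b-5p is named only.
hsa-miR-10a-5p: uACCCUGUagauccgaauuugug
hsa-miR-196a-5p: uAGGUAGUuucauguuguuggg
hsa-miR-196b-5p: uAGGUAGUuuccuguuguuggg
hsa-miR-615-3p: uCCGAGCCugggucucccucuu
Both hsa-mir-196a-1 and hsa-mir-196a-2 give the same hsa-miR-196a-5p. It shares its seed with hsa-miR-196b-5p and differs from it by 1 substitution, A12C, counted from 1 at the 5′ end with the miR-196a base first. Among the mature sequences in the RefSeq table that belong to hairpins of the count table, none of these 3 seeds occurred in another hairpin. hsa-miR-10b-5p was not among the sequences compared, so whether hsa-mir-10b shares the miR-10a seed was not examined.
The hsa-mir-615 hairpin is also shown, since it was the 1 of the 6 that passed the main test, with the 3p arm, bases 61 to 82, in capitals.
MIR615 hairpin: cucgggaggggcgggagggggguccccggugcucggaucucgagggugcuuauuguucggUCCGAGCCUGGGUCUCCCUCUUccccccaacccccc
It is 96 bases long with a GC content of 70.8%, higher than that of 92.4% of the 772 tested hairpins with a sequence. The other 5 lay below the median of 51.1%: 39.1% for hsa-mir-10a, 40% for hsa-mir-10b, 42.9% for hsa-mir-196a-1, 48.2% for hsa-mir-196a-2 and 47.6% for hsa-mir-196b. Folded with RNAfold, hsa-mir-10a had a predicted stability per base above that of 5.18% of the tested hairpins, and hsa-mir-615 above that of 85.1%.

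The libraries held 2609929 to 3320017 counts. The deposited RPM have 1 added to each hairpin's count before scaling to the library total. Of 5 blood-cell hairpins used to check the cell line labels, hsa-mir-223 stood at 0.615 to 9.96 RPM in HEK293E and at 12406 and 13189 RPM in K562. Its lowest value rests on 1 count. The sum of all 5 was 1127 to 1638 RPM in HEK293E and 129955 and 123208 RPM in K562. That sum was 1127 to 1638 RPM in HEK293E controls and 1145 to 1332 RPM in HEK293E siERH, and none of the 5 was at 0. Most of it in HEK293E came from hsa-mir-486-1, at 900 to 1507 RPM there and at 19882 and 21014 RPM in K562. hsa-mir-142 stood at 80.0 to 370 RPM in HEK293E and at 66660 and 65952 RPM in K562. ERH mRNA is not measured by small RNA sequencing, so the knockdown could not be checked here. The labels do not say beyond replicate numbers and experimental groups whether the libraries came from separate cultures, so the p-values measure the spread between these libraries, which may in part be technical.

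In HEK293E the 6 hairpins together made up 2.85% to 4.24% of each library. Levels are given as CPM, the hairpin's share of the library's counts after TMM scaling over the 7 HEK293E libraries. These are reads per hairpin. Differences in ligation efficiency between sequences were not tested, and lengths of mature products are nearly equal. In the controls hsa-mir-10a was at 17469 ± 2127 CPM (SD, n = 4), hsa-mir-196b at 8892 ± 1489 and hsa-mir-10b at 5114 ± 947. Below them came hsa-mir-615 at 2252 ± 410, hsa-mir-196a-2 at 1433 ± 578 and hsa-mir-196a-1 at 1314 ± 611 CPM. hsa-mir-10a ranged from the rank 4 to the rank 17 among all hairpins of a HEK293E library. The order hsa-mir-10a, hsa-mir-196b, hsa-mir-10b held in each of the 7 libraries. The ranges of hsa-mir-615 and hsa-mir-196a-2 overlapped in the controls. The ranges of the 2 copies of hsa-mir-196a overlapped too, although hsa-mir-196a-2 had more counts than hsa-mir-196a-1 in each of the 7 libraries.

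The 2 copies of hsa-mir-196a had nearly equal counts. Their count ratio (hsa-mir-196a-1 to hsa-mir-196a-2) was between 0.832 and 0.978 in HEK293E and was 1.01 and 0.976 in K562. Their levels over the 7 HEK293E libraries had a Pearson correlation of 0.998, a description of 2 hairpins with the same mature sequence. They are not independent measurements in what follows, and how much each locus gave is uncertain, since the handling of shared reads is not given in the sources used here.

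**Figure D2:**
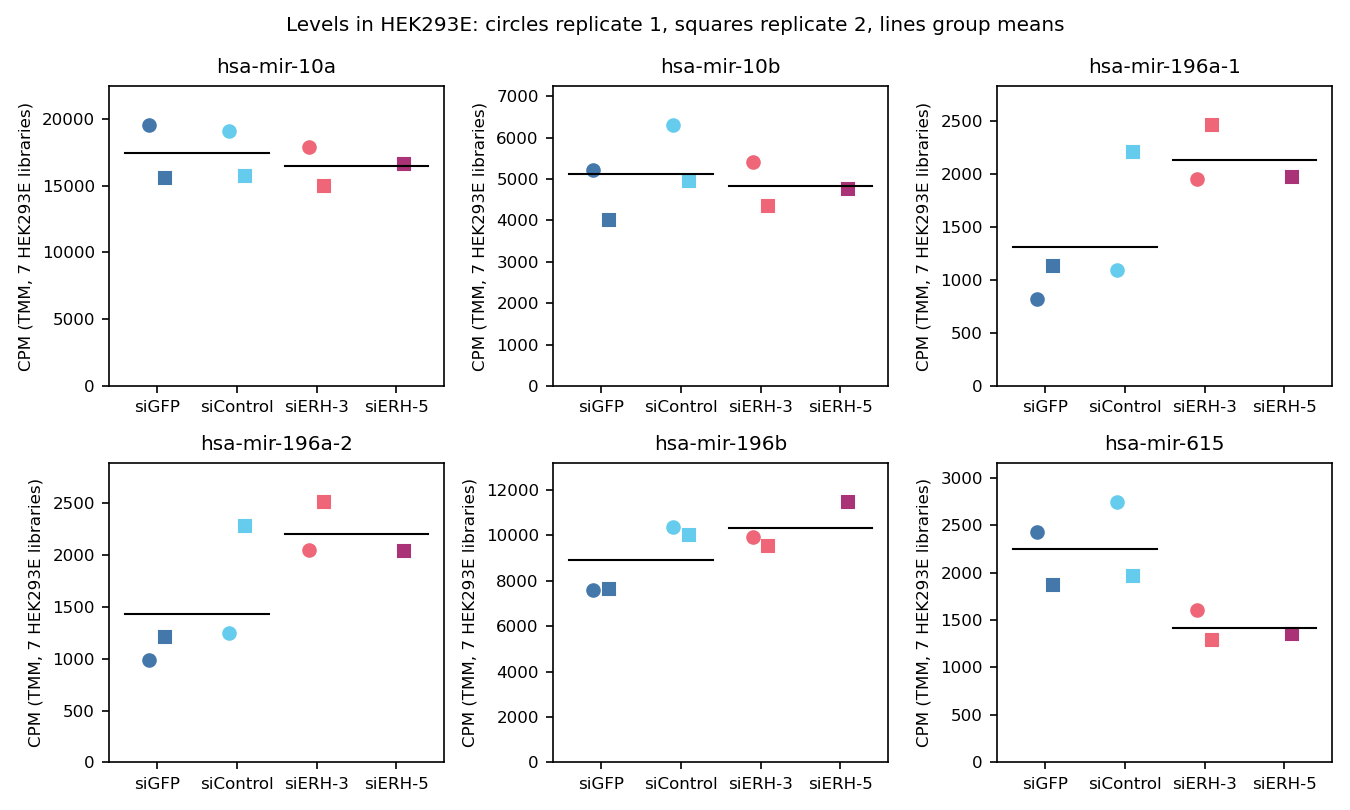
CPM (TMM scaling) of each hairpin in the 7 HEK293E libraries by siRNA; circles are replicate 1, squares replicate 2, and lines are the means of the 4 control and the 3 siERH libraries, with every axis from 0. hsa-mir-615 is the panel in which all siERH points lie under all control points.

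The question of the HEK293E comparison was which hairpins changed when ERH was knocked down. hsa-mir-615 was lower with siERH. The hsa-mir-196a copies were 1.62-fold and 1.54-fold higher and did not pass the main test, which has no replicate block. Each copy was called higher in 8 of 24 other settings, counting fits of the copies summed. hsa-mir-10a, hsa-mir-10b and hsa-mir-196b did not pass the main test either, although each of these 3 was called under at least 1 other setting. Over all 773 hairpins tested with edgeR, 16.2% were called lower and 23.8% higher at an adjusted p under 0.05, so 1 of 6 called lower and 0 of 6 called higher is near the background for lower calls and under it for higher calls in this fit, which has no replicate block. The median log2 fold change was -0.01 over all tested hairpins.

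hsa-mir-615 had 2428 CPM with siGFP replicate 1, 2746 with siControl replicate 1, 1871 with siGFP replicate 2 and 1962 with siControl replicate 2. With siERH it had 1600 CPM with siERH-3 replicate 1, 1290 with siERH-3 replicate 2 and 1350 with siERH-5. In TMM-scaled CPM all 3 siERH libraries lay below all 4 controls. This pattern was shown in the lower direction by 19.1% of tested hairpins and in the higher direction by 25.5%. In the deposited RPM the groups overlapped. There siERH-3 replicate 1, at 1748, lay above siGFP replicate 2, at 1701, and siControl replicate 2, at 1682. hsa-mir-615 fell from 2252 ± 410 (SD, n = 4) to 1413 ± 165 CPM (n = 3), which is -0.67 ± 0.18 on the log2 scale (SE; adjusted p = 0.0135 by edgeR). Against the mean of the controls of the same replicate the log2 change was -0.69 and -0.57 for siERH-3 and -0.51 for siERH-5, so both siRNAs gave a lower value. The call was lost without siERH-3 replicate 2 (log2 fold change -0.60, edgeR adjusted p = 0.0703), without siERH-5 replicate 2 (-0.63, 0.0597) and on library totals (-0.50, 0.0857). It was also lost against siGFP alone (-0.62, edgeR adjusted p = 0.0508) and by limma on log2(RPM + 1) (-0.47, adjusted p = 0.103) and log2(RPM + 10) (-0.47, 0.102). The call held in 17 of 24 settings, all drawn from the same 7 libraries. Leaving out siERH-5 replicate 2 is the same fit as siERH-3 alone, and both are counted among the settings. The difference from the median of all hairpins was -0.66 with TMM scaling and -0.69 on library totals.

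Scaling by library totals in place of TMM raised the median of the 773 log2 fold changes by 0.20, from -0.01 to 0.19. It also moved the calls from 125 lower and 184 higher, 40.5% of them lower, to 67 lower and 212 higher, 24.0% lower. The members are therefore also given relative to the median. Relative to it hsa-mir-196a-1 stood at 0.71 with TMM and 0.73 on library totals, hsa-mir-196b at 0.22 and 0.22, hsa-mir-10a at -0.07 and -0.10, and hsa-mir-10b at -0.07 and -0.09.

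hsa-mir-196a-1, one of the sources of the HOX-repressing miR-196a, had 825 CPM with siGFP replicate 1, 1096 with siControl replicate 1, 1128 with siGFP replicate 2 and 2207 with siControl replicate 2. With siERH it had 1958 and 2462 CPM in siERH-3 replicates 1 and 2 and 1975 with siERH-5. The groups overlapped, because siControl replicate 2 lay above 2 of the 3 siERH libraries. The difference on the log2 scale was 0.70 ± 0.29 (SE; adjusted p = 0.0784 by edgeR) for hsa-mir-196a-1 and 0.62 ± 0.26 (0.0816) for hsa-mir-196a-2, from 1433 ± 578 to 2201 ± 274 CPM. With the replicate number as a block, both copies passed, at 0.66 ± 0.22 (edgeR adjusted p = 0.0213) and 0.58 ± 0.20 (0.0285). In that fit 28.1% of tested hairpins were called higher, against 2 of the 6, which are the 2 copies with the same mature sequence. It called 20.6% lower, against 1 of the 6, hsa-mir-615 at -0.60 ± 0.13 (edgeR adjusted p = 0.00199). Without siControl replicate 2 the hsa-mir-196a-1 value was 1.06 (edgeR adjusted p = 0.00218) and the hsa-mir-196a-2 value 0.93 (0.00272). On library totals, where hsa-mir-615 was not called, both copies were, at 0.92 (edgeR adjusted p = 0.0155) and 0.84 (0.0140). By limma on log2(RPM + 1) they were called at 0.98 and 0.88 (both adjusted p = 0.0109).

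The choice of control mattered for miR-196a. Against siGFP alone the log2 fold change of hsa-mir-196a-1 was 1.11 (edgeR adjusted p = 0.0105), and against siControl alone it was 0.34 (0.38). Against the mean of the controls of the same replicate the log2 change was 1.03 and 0.56 for siERH-3 replicates 1 and 2 and 0.24 for siERH-5, although siERH-5, at 1975 CPM, lay below siControl replicate 2, at 2207 CPM. For hsa-mir-615 the values were -0.62 against siGFP alone (edgeR adjusted p = 0.0508) and -0.77 against siControl alone (0.0215), so the size depended less on the control.

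hsa-mir-196b, which shares the seed of miR-196a but comes from the HOXA cluster, had 7583 and 7633 CPM in siGFP replicates 1 and 2 and 10342 and 10010 in siControl replicates 1 and 2. It had 9925 and 9532 CPM with siERH-3 and 11478 with siERH-5. The siERH libraries lay near the siControl libraries and above the siGFP libraries. Against all controls it stood at 0.21 ± 0.17 on the log2 scale (SE; adjusted p = 0.335 by edgeR), and against siControl alone it was -0.01. It was called higher by limma on log2(RPM + 1) (0.41, adjusted p = 0.0491) and log2(RPM + 10) (0.41, 0.0499), and by edgeR with the block on library totals (0.43, adjusted p = 0.0135). On library totals without the block it was 0.41 (edgeR adjusted p = 0.0522).

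hsa-mir-10a, the most abundant of the 6, had 19524 and 15560 CPM in siGFP replicates 1 and 2 and 19085 and 15709 in siControl replicates 1 and 2. It had 17895 and 14984 CPM with siERH-3 and 16614 with siERH-5. The replicate 1 libraries were higher than the replicate 2 libraries under each siRNA used in both, and the groups overlapped. The difference on the log2 scale was -0.08 ± 0.15 (SE; adjusted p = 0.686 by edgeR). hsa-mir-10b, its HOXD counterpart, had 3996 to 6299 CPM in the controls and 4352 to 5411 with siERH, a log2 fold change of -0.08 ± 0.18 (0.739).

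Log2 fold changes over the 772 hairpins with a sequence were lower at higher GC content (Spearman rho -0.36, across hairpins of the same libraries, which are not independent replicates). Once this trend was removed, 150 of 773 hairpins were called lower and 122 higher. In that fit hsa-mir-10a was called lower at -0.62 (edgeR adjusted p = 0.0194) and hsa-mir-10b at -0.58 (0.0404). hsa-mir-615 remained called at -0.50 (0.0209) and hsa-mir-196a-1 stood at 0.36 (0.289). With the replicate block also in the fit, neither hsa-mir-196a copy was called. There hsa-mir-196a-1 stood at 0.33 (edgeR adjusted p = 0.208) and hsa-mir-196a-2 at 0.47 (0.0700). The hairpins of the low-GC miR-10 family thus had a fold change near the median of all hairpins and under that of hairpins of like GC content.

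The related miR-99 and miR-100 family has mature sequences like that of miR-10 with another seed and lies outside the HOX clusters. Its mature sequences are shown for that likeness, with the seed in capitals.
hsa-miR-99a-5p: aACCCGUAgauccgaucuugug
hsa-miR-100-5p: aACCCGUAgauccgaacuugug
hsa-mir-99a fell from 5192 ± 403 (SD, n = 4) to 3112 ± 672 CPM (n = 3), at -0.74 ± 0.17 on the log2 scale (SE, edgeR adjusted p = 0.00767). It had 2781 and 2670 CPM in siERH-3 replicates 1 and 2 and 3885 with siERH-5. In the deposited RPM siERH-5 was at 4217, near siGFP replicate 2 at 4373 and siControl replicate 2 at 4249. hsa-mir-99b stood at -0.24 ± 0.15 (0.221) and hsa-mir-100 at -0.06 ± 0.24 (0.866). hsa-mir-7704 of the HOXD cluster, at 3.81 ± 0.655 CPM in the controls, had a log2 fold change of -0.10 ± 0.32 (0.824).

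**Figure D3:**
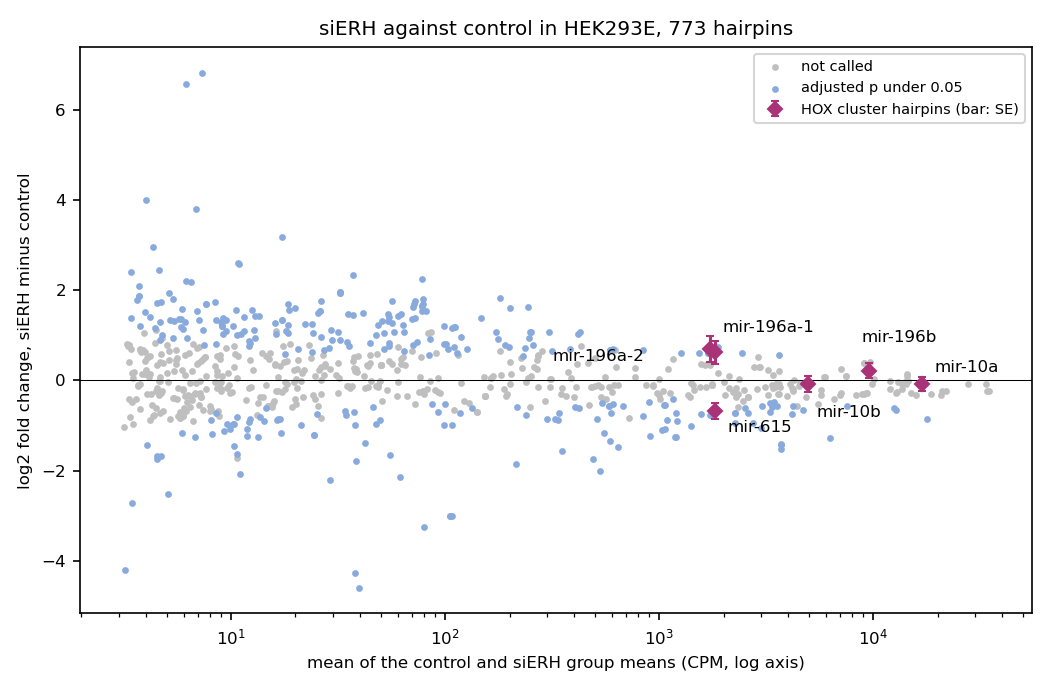
Log2 fold change (siERH minus control, HEK293E) against the mean level in CPM (log axis) for the 773 tested hairpins; diamonds are the 6 HOX cluster hairpins with SE bars. hsa-mir-615 lies at -0.67, the hsa-mir-196a copies at 0.70 and 0.62, and the other 3 between -0.08 and 0.21.

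In both replicates the miR-196 hairpins were higher with siControl than with siGFP. siControl against siGFP gave no call among 730 hairpins without the block (0% lower and 0% higher by edgeR, with 24 at an unadjusted p under 0.05, and 2 lower and 2 higher by DESeq2). hsa-mir-196a-1 was at 976 CPM as the mean of 2 siGFP libraries and 1651 as the mean of 2 siControl libraries, a log2 difference of 0.76 ± 0.40 (SE, edgeR adjusted p = 0.959). With the block, 8.36% of hairpins were called lower and 9.86% higher in siControl, and 4 of the 6 HOX hairpins were among the higher. These were hsa-mir-196a-1 at 0.68 (edgeR adjusted p = 5.8e-07), hsa-mir-196a-2 at 0.62 (5.38e-06), hsa-mir-196b at 0.41 (0.00225) and hsa-mir-10b at 0.28 (0.0469). hsa-mir-615 was at 0.12 (0.517) and hsa-mir-10a at -0.02 (0.931). The blocked fit has 4 libraries and 1 residual degree of freedom, so its p-values rest mainly on the spread pooled over all hairpins. Within replicates 1 and 2 the log2 differences were 0.41 and 0.97 for hsa-mir-196a-1, 0.33 and 0.92 for hsa-mir-196a-2 and 0.45 and 0.39 for hsa-mir-196b. For the hsa-mir-196a copies these pairs lay further apart than the blocked SE of 0.12 conveys. limma on log2(RPM + 1) with the block called the 3 mir-196 hairpins (adjusted p = 8.27e-05, 0.000367 and 0.0389) and not hsa-mir-10b (0.332). The blocked difference between the 2 control siRNAs in hsa-mir-196a-1, 0.68, was thus as large as the blocked difference between siERH and control, 0.66, with siGFP and siControl libraries entering both.

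Ratios within a library do not depend on scaling. The log2 ratio of hsa-mir-615 to hsa-mir-196a-2, neighbors in the HOXC cluster, was 1.29 and 0.63 in siGFP replicates 1 and 2 and 1.14 and -0.22 in siControl replicates 1 and 2. With siERH-3 it was -0.36 and -0.97, and with siERH-5 it was -0.59. In 3 of the 4 controls hsa-mir-615 had more counts than hsa-mir-196a-2, and in all 3 siERH libraries it had fewer. The mean moved by -1.35, or 2.55-fold, from 0.71 ± 0.68 (SD, n = 4) to -0.64 ± 0.31 (n = 3), with a two-sided exact permutation p = 0.0571. It was 0.19 after Benjamini-Hochberg adjustment over the 4 ratios examined, and the smallest p that the 35 splits allow is 0.0286. Permuted within replicates, the difference was -1.22 (exact permutation p = 0.0556, adjusted p = 0.222). That p is the smallest that the 18 splits within replicates allow.

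The other ratios had larger p-values in the exact permutation test. hsa-mir-196b to hsa-mir-196a-2 went from 2.69 ± 0.41 (SD, n = 4) to 2.23 ± 0.29 (n = 3) on the log2 scale (exact permutation p = 0.143). hsa-mir-196a-1 to hsa-mir-10a, both from HOXB, went from -3.83 ± 0.74 to -2.96 ± 0.31 (exact permutation p = 0.143 with n = 4 and n = 3). hsa-mir-10b to hsa-mir-10a was -1.78 ± 0.18 in the controls and -1.77 ± 0.04 with siERH (exact permutation p = 0.943). In the last ratio the siControl libraries were higher than the siGFP libraries by 0.30 on average, and the siERH libraries lay between them.

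**Figure D4:**
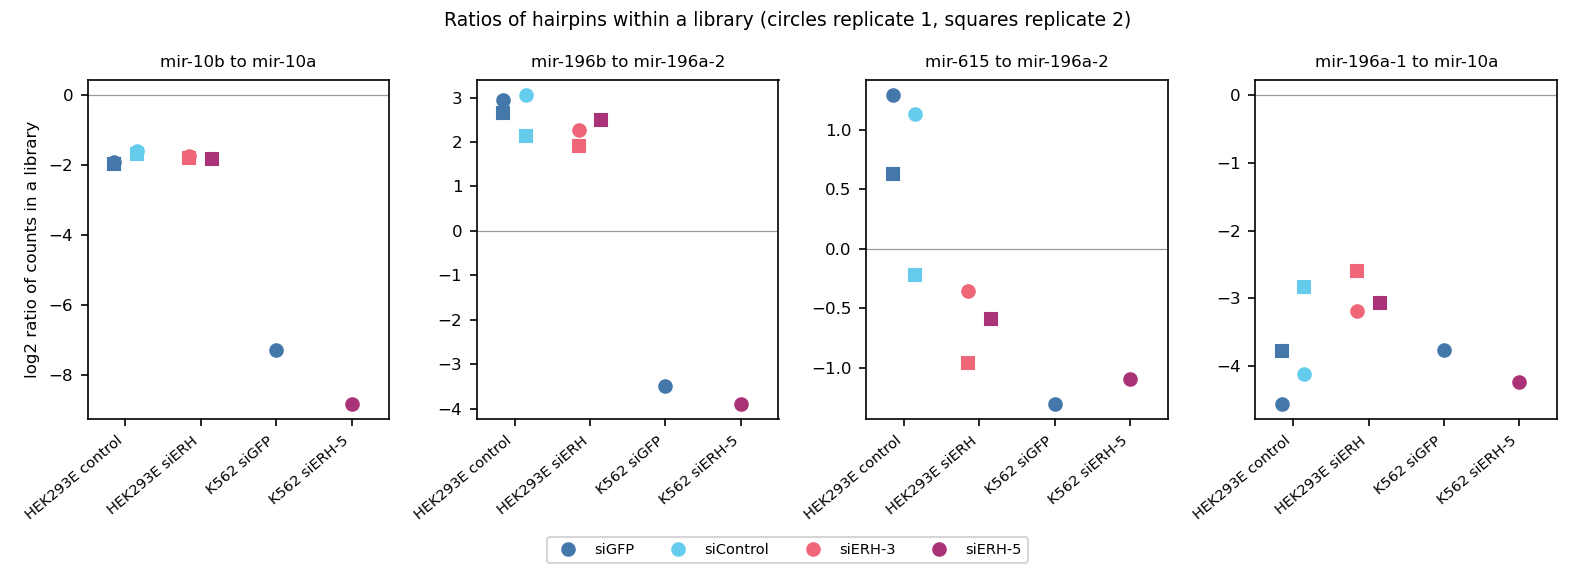
Log2 ratio of counts of 2 hairpins within each library, 1 panel a ratio, for HEK293E control, HEK293E siERH and both K562 libraries; circles are replicate 1 and squares replicate 2. In the panel of hsa-mir-615 to hsa-mir-196a-2 the 3 siERH points, -0.36 to -0.97, lie under the 4 control points, -0.22 to 1.29.

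The hairpins whose levels over the 7 HEK293E libraries were most like each member were named by Pearson correlation of log2 CPM among 773 hairpins. For hsa-mir-615 they were hsa-mir-1237 (r = 0.983), hsa-mir-181a-1 (0.980) and hsa-mir-181a-2 (0.979). For both copies of hsa-mir-196a, beside each other, they were hsa-mir-1243 (0.979 with hsa-mir-196a-1) and hsa-mir-4803 (0.936). For hsa-mir-196b they were hsa-mir-335 (0.847), hsa-mir-145 (0.846) and hsa-mir-200c (0.840). hsa-mir-10a was closest to hsa-mir-22 (0.971), hsa-mir-3653 (0.963) and hsa-mir-7706 (0.953), and hsa-mir-10b to hsa-mir-28 (0.934), hsa-mir-1-1 (0.907) and hsa-mir-1-2 (0.906). Within the 6, hsa-mir-10a and hsa-mir-10b had r = 0.812, hsa-mir-196a-1 and hsa-mir-196b 0.654, and hsa-mir-196a-1 and hsa-mir-615 -0.79. These describe 7 libraries that share siRNAs and replicate numbers.

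The comparison of cell lines under siGFP asked where the 6 hairpins are present. It sets 1 K562 library against 2 HEK293E libraries and has no replicate check in K562. With TMM over 9 libraries, 32.2% of 790 hairpins were at least 2-fold lower in K562 and 22.9% at least 2-fold higher, and 5 of the 6 were at least 2-fold lower. hsa-mir-196b had 6487 and 6554 CPM in HEK293E and 40.3 in K562, which is 158-fold lower. hsa-mir-10b had 4459 and 3431 CPM in HEK293E and 40.3 in K562, which is 95.5-fold lower.

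These 2 hairpins rested on 56 counts each in K562 siGFP (95% exact Poisson interval 42.3 to 72.7, counting error only), which is 0.363% of the mean HEK293E count for hsa-mir-10b and 0.191% for hsa-mir-196b. Whether carry-over of reads between libraries has a part in such low counts was not tested. Whether reads of hsa-mir-10a or of the hsa-mir-196a copies were assigned to these 2 hairpins was not tested either. In the other direction hsa-mir-223, with 32446 counts in K562 siGFP, had 1 to 25 counts in the HEK293E libraries.

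The rest of the 6 were present in K562 at higher levels. hsa-mir-615 was at 2077 and 1607 CPM in HEK293E and 185 in K562, 9.91-fold lower. hsa-mir-10a was at 16702 and 13361 CPM and 6285, 2.39-fold lower. hsa-mir-196a-1 was at 705 and 969 CPM and 463, 1.81-fold lower, and hsa-mir-196a-2 2.06-fold lower. The scaling sets these sizes. In the deposited RPM the log2 differences were -8.44 for hsa-mir-196b, -7.73 for hsa-mir-10b, -4.45 for hsa-mir-615, -2.40 for hsa-mir-10a and -1.96 for hsa-mir-196a-1. The order and direction were the same.

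The family makeup therefore differed between the lines. hsa-mir-10b gave 20.4% to 24.8% of the counts of hsa-mir-10a and hsa-mir-10b together in HEK293E, and 0.637% (95% Wilson interval 0.491% to 0.827%) in K562 siGFP. hsa-mir-196b gave 65.7% to 81.5% of the counts of the 3 mir-196 hairpins in HEK293E and 4.19% (3.24% to 5.41%) in K562 siGFP. Most miR-196 counts thus came from hsa-mir-196b in HEK293E and from the hsa-mir-196a copies in K562. The 6 hairpins together were 0.397% of the K562 siGFP library and 0.561% of the K562 siERH-5 library.

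**Figure D5:**
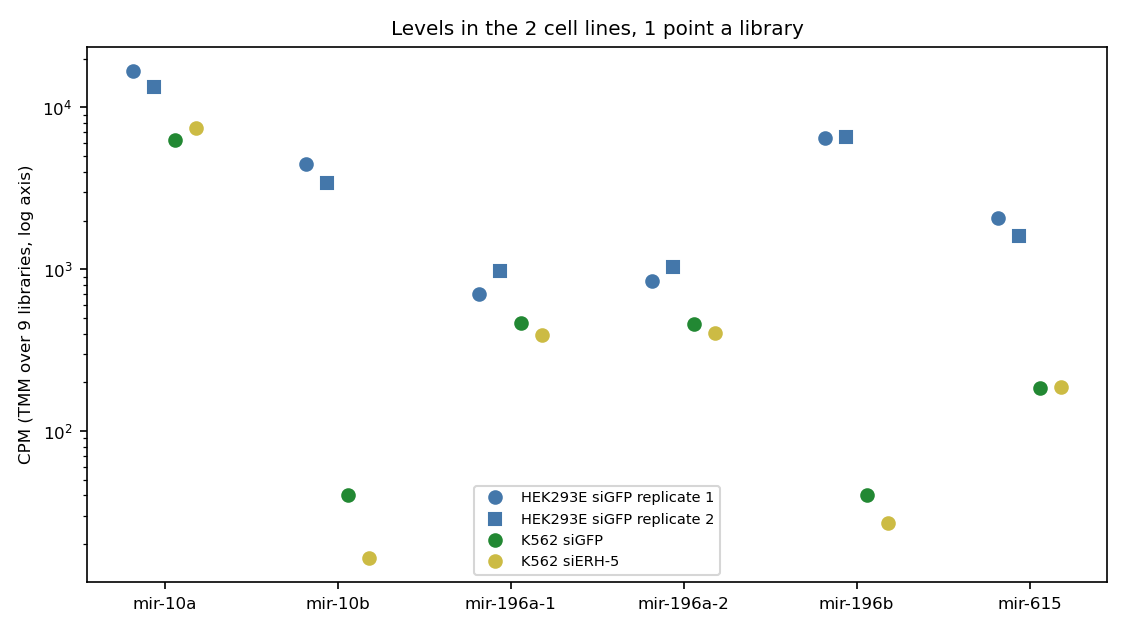
CPM on a log axis (TMM over 9 libraries) of the 6 hairpins in the 2 HEK293E siGFP libraries, K562 siGFP and K562 siERH-5, 1 point a library. hsa-mir-10b and hsa-mir-196b show the widest gap between the lines, 6487 and 6554 against 40.3 CPM for hsa-mir-196b.

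In K562, siERH-5 against siGFP is 1 library against 1, with no test of the condition. Intervals cover counting error only. They are of the scaled count ratio itself, whereas the log2 differences have 1 added to each CPM, which draws those of low hairpins toward 0. TMM over the K562 pair put 6.81% of 646 hairpins at least 2-fold lower, 10.1% at least 2-fold higher and the median log2 difference at 0.11. hsa-mir-10b was the 1 of 6 past 2-fold, from 23.6 to 9.83 CPM, a log2 difference of -1.19 (95% interval -1.91 to -0.64) on 56 and 36 counts. It was short of 2-fold on library totals (-0.92), in the deposited RPM (-0.97) and with a pseudocount of 10 (-0.76). hsa-mir-10a was at 3684 and 4468 CPM, a log2 difference of 0.28 (0.24 to 0.32).

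hsa-mir-615 was at 108 and 113 CPM in K562, a log2 difference of 0.06 (-0.17 to 0.29). In HEK293E the 1 siERH-5 library stood at -0.51 against the controls of its replicate, and at -0.21 on library totals. The difference between the lines was not tested, since K562 has 1 library an arm and was harvested at another time after another way of transfection. hsa-mir-196a-1 was at 271 and 235 CPM in K562 (-0.21, -0.36 to -0.06) and hsa-mir-196a-2 at 268 and 241 (-0.16, -0.30 to -0.01), and hsa-mir-196b at 23.6 and 16.1 CPM (-0.53, -1.11 to 0.0012, which holds 0). On library totals the log2 differences in K562 were -0.26 for hsa-mir-196b, 0.08 for hsa-mir-196a-1, 0.13 for hsa-mir-196a-2 and 0.34 for hsa-mir-615, so the sign of the hsa-mir-196a values depended on the scaling.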

How the data were processed

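Small RNA libraries with random adapter bases were made from gel-purified short RNA of 7 HEK293E and 2 K562 samples, per the labels' protocols. The deposited counts are whole numbers of reads per hairpin. The deposited RPM values are those counts plus 1, scaled to the library total of such values. Recomputed in that way, they had a largest relative difference of 1.1e-09. The authors trimmed with cutadapt, aligned with Bowtie2 to hg38 and used bedtools, per the submitters' processing notes. The versions, the hairpin annotation, the handling of reads that match several hairpins, the use of the random bases to collapse duplicates and the spike-in scaling are not given in the sources used here.

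Blank cells (2336) were read as 0. Library totals are sums over hairpins, 2609929 to 3320017 counts; a count of 0 allows up to 3 counts. A hairpin was tested where its libraries averaged 10 or more counts (773 in HEK293E) with edgeR 4.0.16 in R 4.3.3 (TMM, quasi-likelihood F test, siERH against both control siRNAs, Benjamini-Hochberg adjustment over all tested hairpins, threshold 0.05); the SE is the log2 fold change divided by the square root of F. The alternatives used DESeq2 1.42.0, limma 3.58.1, library totals, a replicate block, removal of a loess trend on GC (span 0.5), other filters, other controls and leaving out each library. Ratios used exact permutation tests, with 0.5 added to counts. Levels between lines are log2 of CPM plus 1. Both kinds of test were tested on simulated data.

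Same-numbered HEK293E libraries share an experimental group in the labels (group 1 or 2) and deviated together (correlations of deviations 0.69 between siGFP and siControl, 0.48 between siGFP and siERH-3 and 0.52 between siControl and siERH-3). The numbers were therefore taken as pairs in the blocked fits, in the permutation within replicates and in the within-replicate differences. The main edgeR test and the main permutation tests did not use them.

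All 6 hairpins are named, with the other HOX cluster hairpins, the miR-99 and miR-100 relatives and the 3 most correlated hairpins of each. The members and lists were chosen with earlier results of these data known. GENCODE 29 matched 1480 of 1485 hairpins by name. RNAfold 2.7.2 gave the stabilities.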

Additional observations from a re-analysis of the deposited data

Results flagged for a closer look

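4 hairpins moved one way in all 3 HEK293E siERH libraries, each against the controls of its own replicate, and the other way in the 1 K562 siERH-5 library. hsa-mir-196a-1 stood at 1.03, 0.56 and 0.24 in HEK293E and at -0.21 in K562, and hsa-mir-196a-2 at 0.87, 0.53 and 0.22 against -0.16, all on the log2 scale. hsa-mir-196b stood at 0.15, 0.11 and 0.38 against -0.53, where the counting interval in K562, -1.11 to 0.0012, holds 0, and -0.26 on library totals. hsa-mir-615 stood at -0.69, -0.57 and -0.51 against 0.056, where the counting interval in K562 also holds 0. These differences between the lines were not tested, since K562 has 1 library an arm. On library totals the K562 values of both hsa-mir-196a copies were positive, 0.08 and 0.13, as in HEK293E. In each of 10 sets of 4 control values the gap between the highest or lowest library and its neighbor, as a share of the range, was under Dixon's 95% critical value, which chance alone passes in about 1 of 20 sets. The widest gaps were 78.1% and 80.0% of the range, for siControl replicate 2 in hsa-mir-196a-1 and hsa-mir-196a-2, and leaving out that library moved their siERH values to 1.06 and 0.93.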

How the results depend on the processing

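Values are log2 fold changes unless named. For siERH against control in HEK293E, library totals gave 0.093 for hsa-mir-10a, 0.10 for hsa-mir-10b, 0.92 and 0.84 for hsa-mir-196a-1 and hsa-mir-196a-2, and -0.50 for hsa-mir-615. limma on log2(RPM + 1) and log2(RPM + 10), which also scale by totals, gave 0.11 and 0.11, 0.12 and 0.12, 0.98 and 0.97, 0.88 and 0.87, 0.41 and 0.41 for hsa-mir-196b, and -0.47 and -0.47. Only the totals and limma settings, the block on totals, replicate 2 alone and, for hsa-mir-10b, siGFP alone and leaving out siControl replicate 1 turned a miR-10 value positive. The replicate block gave 0.66 and 0.58 for the hsa-mir-196a copies, 0.64 for the copies summed, and on totals 0.18, 0.20, 0.88, 0.80 and 0.43 for hsa-mir-10a, hsa-mir-10b, hsa-mir-196a-1, hsa-mir-196a-2 and hsa-mir-196b. With TMM the block changed no other siERH call among the 6. Removing the GC trend gave -0.62 and -0.58 for hsa-mir-10a and hsa-mir-10b, and -0.54 and -0.49 with the block. Replicate 2 libraries alone gave 0.063 and 0.074 for them. siGFP alone as control gave 0.058 for hsa-mir-10b, 1.11 and 0.99 for the hsa-mir-196a copies and -0.62 for hsa-mir-615, and siControl alone gave -0.011 for hsa-mir-196b. siERH-3 alone gave -0.63 for hsa-mir-615. Over 24 settings the adjusted p ranged from 0.00112 to 0.103 for hsa-mir-615, and from 0.00218 to 0.38 for hsa-mir-196a-1. Leaving out 1 library at a time gave -0.19 to 0.033 for hsa-mir-10b, 0.53 to 1.06 and 0.48 to 0.93 for the hsa-mir-196a copies, -0.76 to -0.57 for hsa-mir-615, -0.048 to 0.073 for the log2 ratio of hsa-mir-10b to hsa-mir-10a, and 76 to 130 hairpins called lower.

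Hairpins called lower (125) became 67 on totals, 63 with a mean of at least 100 counts, and 66 and 63 by limma. Those called higher (184) became 82 with that filter, under which fewer hairpins were tested, and 122 without the GC trend. For siControl against siGFP, hairpins called were 2 lower and 2 higher by DESeq2 and with no filter, 61 and 72 with the block, and 110 and 40 with the block by limma. That setting, the block on totals, the block with copies summed and TMM over 9 libraries for K562 were chosen after seeing the data. hsa-mir-615 there was -0.0097 on totals and -0.011 by limma with and without the block.

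In K562, totals and RPM gave 0.56 for hsa-mir-10a, 0.076 and 0.13 for the hsa-mir-196a copies and 0.34 for hsa-mir-615, and -0.92 and -0.97 for hsa-mir-10b, which is short of 2-fold. Between lines, totals and RPM gave -2.40 for hsa-mir-10a, -7.69 and -7.73 for hsa-mir-10b, -1.96 and -2.15 for the hsa-mir-196a copies, -8.40 and -8.44 for hsa-mir-196b, and -4.44 and -4.45 for hsa-mir-615. A pseudocount of 10 gave -6.30 and -7.02 for hsa-mir-10b and hsa-mir-196b. TMM without a filter gave -1.50, -1.28 and -7.54 for hsa-mir-10a, hsa-mir-196a-2 and hsa-mir-196b, and all 4 controls gave -1.27, -1.41 and -7.51 for hsa-mir-196a-1, hsa-mir-196a-2 and hsa-mir-196b. The cause of these shifts was not tested. Depth limits hsa-mir-10b and hsa-mir-196b in K562 (36 to 59 counts) and hsa-mir-7704, and 3 against 4 libraries limit the permutation tests.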
